A study of Rattus norvegicus with 9 samples.

Results

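The genes described here encode 10 enzymes of the methionine and one-carbon cycle: Mat1a, Mat2a, Gnmt, Bhmt, Ahcy, Cbs, Cth, Pemt, Sardh and Mthfd1. They were chosen by name, with earlier results of these data known, so the shares of all genes set beside them are descriptions. Of the 32883 genes in the deposited tables, 9 members were found by their symbol. The other, Cth, was found by its Entrez gene number on a row that carries the symbol LOC103691744 and describes cystathionine gamma-lyase. All 10 members passed the filter on low counts, and their counts ranged from 212 (Gnmt) to 54795 (Mat1a) per library. Bulk liver RNA was sequenced from 9 male Sprague-Dawley rats aged 8 to 11 weeks, with 3 livers in each of 3 groups: normal, empty and UTOpiA. The study asked how the livers of rats with acute-on-chronic liver failure (ACLF) changed after whole-blood treatment outside the body.

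The labels give no ligation, LPS or circuit for the normal rats. In both ACLF groups the bile duct was ligated for 21 days, LPS was then injected intraperitoneally at 0.25 mg/kg, and 2 h of extracorporeal circulation under isoflurane and heparin began 1 h after LPS. The empty group received a circuit without cells and without granulocyte and monocyte/macrophage apheresis (GMA). In the UTOpiA group the circuit held a GMA column followed by alginate-encapsulated hepatocyte-like cells (iHLCs), made from genome-edited human iPSC lines. ACLF livers were taken 24 h after LPS from rats alive at that time, so rats that died earlier are not represented. Ligation, LPS and the circuit were applied together, and their parts in a difference from normal livers cannot be told apart.

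Between 14241172 and 17321677 reads were counted per library. Hepatocyte markers marked all 9 libraries as liver, with a summed level of 173583 to 190497 TPM in normal, 46294 to 84001 TPM in empty and 53555 to 82145 TPM in UTOpiA livers. TPM is a gene's share of the library after scaling by gene length, and lets levels of different genes be compared. Fold changes were taken from counts scaled by TMM, which assumes that most genes do not differ. Both scales are needed here, because the median gene stood 0.44 higher in empty than in normal livers on log2(TPM + 1) but 0.04 higher after TMM. For UTOpiA against normal livers these medians were 0.28 and 0.05, and for UTOpiA against empty livers -0.17 and 0.00. A gene was called when its fold change exceeded 2 and its edgeR p, adjusted by Benjamini-Hochberg for 14089 genes, was under 0.05. Before adjustment, 7822 of these genes had an edgeR p under 0.05 in empty against normal livers. The assumption of TMM may therefore not hold there, which matters most for fold changes near the limit.

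Hepatocytes activate methionine with ATP to S-adenosylmethionine (SAM), the methyl donor of the cell, and methyltransferases turn SAM into S-adenosylhomocysteine. This is hydrolysed to homocysteine, which is either methylated back to methionine or joined to serine and passed through transsulfuration to cysteine and glutathione. Adult hepatocytes make SAM with the product of Mat1a, whereas fetal, dividing and non-parenchymal cells use that of Mat2a, and a shift from Mat1a to Mat2a has been described in injured and regenerating liver.

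The promoters of the SAM synthetase pair show how differently built these genes are, and that of Bhmt is shown beside them because Bhmt was the most abundant member in normal livers. Each sequence is the 250 bases before the RefSeq start site on rat build GRCr8, read on the gene's strand from 5′ to 3′. Capitals mark matches, on either strand, to the motifs searched. These were the TATA box TATAAA, the CCAAT box (read as ATTGG when it lies on the other strand), the GC box GGGCGG, the nuclear receptor motif AGGTCA, the C/EBP-type motif TTGCNNAA and the E-box CACGTG, none of which contains another. Mat1a lies at chr16:17016918-17017167 on the plus strand, Mat2a at chr4:106053613-106053862 on the minus strand and Bhmt at chr2:26614430-26614679 on the minus strand.
Mat1a: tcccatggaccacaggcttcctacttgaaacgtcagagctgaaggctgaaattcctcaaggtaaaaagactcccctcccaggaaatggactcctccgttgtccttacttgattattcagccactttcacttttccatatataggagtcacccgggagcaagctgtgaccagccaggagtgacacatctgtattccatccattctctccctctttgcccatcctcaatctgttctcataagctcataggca
Mat2a: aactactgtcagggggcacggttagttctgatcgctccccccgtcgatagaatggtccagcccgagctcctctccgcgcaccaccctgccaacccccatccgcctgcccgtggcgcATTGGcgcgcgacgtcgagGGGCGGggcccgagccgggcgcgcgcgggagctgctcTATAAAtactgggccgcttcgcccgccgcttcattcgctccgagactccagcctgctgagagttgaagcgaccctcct
Bhmt: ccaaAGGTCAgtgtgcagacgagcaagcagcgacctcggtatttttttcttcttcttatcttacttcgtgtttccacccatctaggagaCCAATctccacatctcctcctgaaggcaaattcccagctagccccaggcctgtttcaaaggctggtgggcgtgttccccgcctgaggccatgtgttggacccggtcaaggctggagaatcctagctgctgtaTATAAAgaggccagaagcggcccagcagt
The Mat1a window held 3 CpG dinucleotides and no match to any of the motifs. The Mat2a window held 29 CpG, with a CCAAT box 134 to 130, a GC box 115 to 110 and a TATA box 78 to 73 bases before the start site. The Bhmt window held 8 CpG, with AGGTCA 246 to 241, a CCAAT box 161 to 157 and a TATA box 29 to 24 bases before the start site. Across 33469 promoters of the same length the median was 5 CpG, with quartiles of 2 and 15. The TATA box was present in 12.9% of them, the CCAAT box in 34%, the GC box in 30.5%, the nuclear receptor motif in 14.1%, the C/EBP-type motif in 9.22% and the E-box in 5.59%. Promoters were matched for 9 of the 10 members, and Mthfd1 had none. These matches are descriptions of the letters and no binding was measured.

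Compared with normal livers, empty livers had less mRNA of 8 of the 10 enzymes. Gnmt, Bhmt, Ahcy, Cbs, Cth, Pemt, Sardh and Mthfd1 fell by 2.15-fold (Ahcy) to 6.66-fold (Cth), against 11.1% of all genes tested that were called lower. No member was called higher, against 20.7% of all genes. Mat2a was the one member with a level above normal in every empty liver, at 1.40-fold, and Mat1a did not pass the test. The median log2 fold change was -1.77 over the members and 0.04 over all genes tested.

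On the TMM scale, 8 members lay below every normal liver in all 3 empty livers, against 28.8% of all genes tested. Mat2a alone lay above, against 32.4% of all genes, and Mat1a overlapped. In TPM the same split was found. Bulk RNA cannot tell fewer hepatocytes from less of each mRNA per hepatocyte, so the differences are levels per unit of liver RNA. Over all genes, limma on log2(TPM + 1), which also differs in its test and filter, called 3202 higher and 690 lower, against 2916 and 1560 with edgeR.

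**Figure D1:**
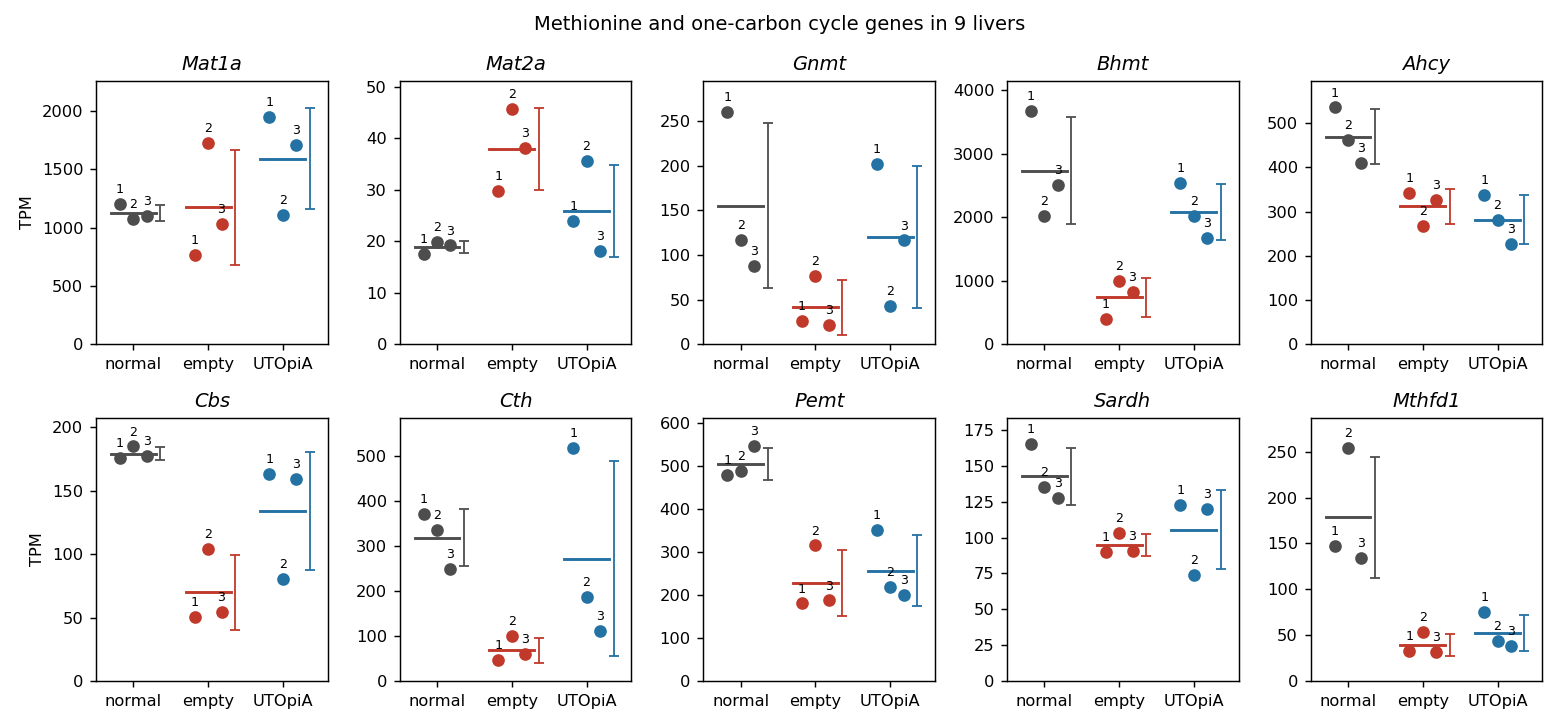
Level of each enzyme gene in TPM (linear vertical axes starting at 0) in the 3 normal, 3 empty and 3 UTOpiA livers. Points are livers labelled with their replicate number, horizontal lines are group means and bars are 1 SD (n = 3). Empty livers lie below normal livers in 8 panels, Mat2a lies above and Mat1a overlaps, and UTOpiA livers spread widely in Gnmt, Cbs and Cth.

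Mat1a (ENSRNOG00000011351; chromosome 16, 18690246 to 18709133, in the deposited coordinates, rn6 per the labels) had 1205, 1072 and 1099 TPM in normal livers 1 to 3. Its level was 765, 1725 and 1029 TPM in the empty livers and 1949, 1109 and 1710.1 TPM in the UTOpiA livers. The empty livers fell on both sides of the normal livers, and the 3 highest levels were those of UTOpiA livers 1 and 3 and empty liver 2. The log2 fold change was -0.46 (SE 0.39, adjusted p = 0.352) for empty against normal livers. With limma on TPM it was -0.02 (adjusted p = 0.96), and over 23 alternatives the adjusted p ranged from 0.0202 to 0.96.

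Mat2a (ENSRNOG00000013520; chromosome 4, 100296075 to 100303080) had the lowest mean level of the members in every group, with 17.6, 19.9 and 19.2 TPM in normal livers. The empty livers had 29.8, 45.7 and 38.2 TPM and the UTOpiA livers 24.01, 35.6 and 18.1 TPM. All 3 empty livers were above all normal livers, while UTOpiA liver 2 stood within the empty range and UTOpiA liver 3 within the normal range. Empty livers were higher by a log2 fold change of 0.48 (SE 0.17, edgeR adjusted p = 0.042), which is below the 2-fold limit and was not called. With limma on log2(TPM + 1) the difference was 0.95 (adjusted p = 0.0104), on a scale where the median gene stood 0.44 higher, and over 23 alternatives the adjusted p ranged from 0.00968 to 0.173.

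The balance between the SAM synthetase genes does not depend on how libraries are scaled, since both are read in the same liver. Mat2a made up 1.44%, 1.83% and 1.72% of the summed Mat1a and Mat2a TPM in normal livers, and 3.75%, 2.58% and 3.58% in empty livers. In UTOpiA livers its share was 1.22%, 3.11% and 1.05%. Mat1a thus remained the main transcript in all 9 livers. The share in UTOpiA livers 1 and 3 was below that of every normal liver, and the share in UTOpiA liver 2 was within the empty range.

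As a log2 ratio of Mat2a to Mat1a, the means were -5.90 ± 0.18 in normal, -4.89 ± 0.30 in empty and -5.96 ± 0.87 in UTOpiA livers (SD, n = 3). The ratio was 2.01-fold higher in empty than in normal livers, a log2 difference of 1.01 (SE 0.20), with no overlap (two-sided exact permutation p = 0.1, the smallest that 3 against 3 livers allow). For UTOpiA against empty livers the difference was -1.07 (SE 0.53, exact permutation p = 0.2), and for UTOpiA against normal livers it was -0.06 (SE 0.51, exact permutation p = 1). With 3 livers a group, this permutation test cannot give a p under 0.05. Without UTOpiA replicate 2 the difference from normal livers was -0.56, and without UTOpiA replicate 3 it was 0.25. Proliferation markers summed to 30.3 to 45.6 TPM in normal, 62.2 to 102 TPM in empty and 46.5 to 83.4 TPM in UTOpiA livers. On the TMM scale their median log2 fold change against normal livers was 1.80 in empty and 2.36 in UTOpiA livers. In each, 4 of 5 were called higher, against 20.7% and 18.2% of all genes tested. For UTOpiA against empty livers the median was 0.27 and none was called. The part of these markers in the Mat2a level was not tested.

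**Figure D2:**
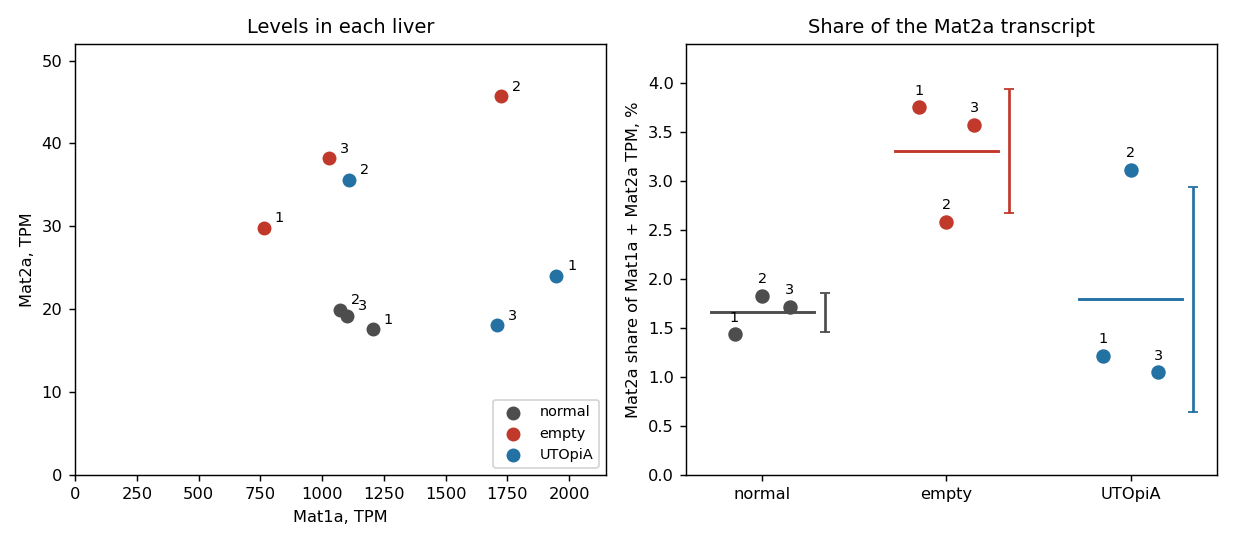
Left, Mat2a against Mat1a in TPM, one point per liver with its replicate number, both axes linear from 0. Right, Mat2a as a percentage of the summed Mat1a and Mat2a TPM, with group means (lines) and SD (bars, n = 3). The 3 normal livers cluster at 1.44% to 1.83%, the empty livers at 2.58% to 3.75%, and UTOpiA liver 2 (3.11%) stands apart from UTOpiA livers 1 and 3.

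Of the members whose enzymes use SAM as a methyl donor or handle the products, Pemt, Ahcy, Gnmt and Sardh were called lower in the empty group. Pemt, which methylates phosphatidylethanolamine to phosphatidylcholine, fell 3.17-fold (ENSRNOG00000054423; chromosome 10, 46339821 to 46404642). Normal livers had 479, 488 and 547 TPM and empty livers 180.3, 315 and 187 TPM, without overlap, and the log2 fold change was -1.66 (SE 0.29, adjusted p = 0.00164). UTOpiA livers had 351, 218 and 199.7 TPM, all below normal livers and overlapping the empty livers, and Pemt was called lower there too at -1.29 (SE 0.29, adjusted p = 0.00725).

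Ahcy encodes the hydrolase of S-adenosylhomocysteine (ENSRNOG00000017777; chromosome 3, 150587833 to 150603082). It had 536, 463 and 410.2 TPM in normal, 343, 268 and 326 TPM in empty and 337, 281 and 226 TPM in UTOpiA livers. Every ACLF liver was below every normal liver, and the ACLF groups overlapped. The log2 fold change was -1.11 (SE 0.22, adjusted p = 0.00294) in empty and -1.06 (SE 0.22, adjusted p = 0.00503) in UTOpiA livers against normal livers. Both are close to the 2-fold limit: with limma on log2(TPM + 1) they were -0.59 and -0.75 and neither was called, and without normal replicate 1 or without UTOpiA replicate 2 the UTOpiA value was -0.95 or -0.94 and was not called.

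Gnmt, the glycine methyltransferase that uses up excess SAM and forms sarcosine, was among the most variable members (ENSRNOG00000016349; chromosome 9, 16565225 to 16568627). Its level was 260.3, 117 and 87.5 TPM in normal livers, 25.8, 76.4 and 21.7 TPM in empty livers and 202, 42.4 and 116 TPM in UTOpiA livers. Empty livers lay below normal livers, and UTOpiA livers reached from the empty into the normal range. Gnmt fell 5.34-fold in empty livers (log2 -2.42, SE 0.74, adjusted p = 0.0259), but the call was lost without normal replicate 1, empty replicate 1 or empty replicate 3 (adjusted p = 0.0858, 0.0777 and 0.0764). The log2 fold change was -1.82 without normal replicate 1 and -3.23 without empty replicate 2. Over 23 alternatives its adjusted p ranged from 3.07e-05 to 0.0858. From base 16566688 to its end, Gnmt overlaps Pex6, a peroxisome biogenesis gene on the opposite strand. The log2 fold change of Pex6 was -2.05 (adjusted p = 0.00946) in empty against normal livers. The sources used here do not say whether counting used strand, so how reads of the shared stretch were assigned is not known.

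Sardh, the mitochondrial dehydrogenase that returns sarcosine to glycine, changed less (ENSRNOG00000006916; chromosome 3, 5737200 to 5802129). Normal livers had 165, 136 and 128 TPM, empty livers 89.8, 103 and 90.5 TPM and UTOpiA livers 123, 74.0 and 119.7 TPM. All ACLF livers were below the normal livers, with UTOpiA livers 1 and 3 nearest to them. The log2 fold change was -1.11 (SE 0.30, adjusted p = 0.0128) in empty livers. It was -0.995 without normal replicate 1 and -0.58 with limma on log2(TPM + 1), and was not called in either.

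Both routes that serve the return of homocysteine to methionine had lower members. Bhmt, which transfers a methyl group from betaine to homocysteine, fell 5.36-fold in empty livers (ENSRNOG00000011200; chromosome 2, 23236575 to 23256158). It had 3673, 2025 and 2507 TPM in normal livers, the highest level of any member. In the empty livers it had 398, 1002 and 817 TPM, all below the normal livers (log2 -2.42, SE 0.39, adjusted p = 0.00106). UTOpiA livers had 2544, 2022 and 1675 TPM, each above every empty liver and overlapping the normal livers in TPM.

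Mthfd1 encodes the cytosolic enzyme that interconverts folate-bound one-carbon units (ENSRNOG00000005602; chromosome 6, 99282850 to 99350340). Its level was 147, 254 and 134 TPM in normal livers, 32.9, 53.5 and 31.8 TPM in empty livers and 74.9, 43.9 and 38.5 TPM in UTOpiA livers. All 6 ACLF livers were below all normal livers. Mthfd1 fell 6.44-fold in empty (log2 -2.69, SE 0.37, adjusted p = 0.000474) and 4.23-fold in UTOpiA livers (log2 -2.08, SE 0.36, adjusted p = 0.00205), and both calls were made in all 23 alternatives.

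The transsulfuration genes were also lower in the empty group. Cbs, which joins homocysteine to serine, had 176, 185 and 177 TPM in normal livers and 50.7, 104 and 54.6 TPM in empty livers (ENSRNOG00000029528; chromosome 20, 10361988 to 10386751). The groups did not overlap, and Cbs fell 3.67-fold (log2 -1.88, SE 0.41, adjusted p = 0.00489). UTOpiA livers had 163, 80.7 and 159 TPM, with livers 1 and 3 just below the normal livers and liver 2 within the empty range.

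Cth, which releases cysteine from cystathionine, had the largest fold change of the members, 6.66-fold lower in empty livers (ENSRNOG00000010658; chromosome 2, 264266984 to 264293046). Normal livers had 371, 335 and 248 TPM and empty livers 45.8, 99.1 and 60.3 TPM (log2 -2.74, SE 0.53, adjusted p = 0.0031). UTOpiA livers had 518, 187 and 111 TPM, so that liver 1 was above all normal livers, livers 2 and 3 were below them, and all 3 were above the empty livers. The lead of Cth in empty livers was small, as Mthfd1 fell 6.44-fold, and it depended on single livers. Without normal replicate 1 Mthfd1 came first, at log2 -2.81 against -2.61 for Cth. Without empty replicate 2 Gnmt did, at -3.23 against -3.13 for Cth.

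In the UTOpiA group 3 members were called lower than in normal livers, Pemt, Ahcy and Mthfd1, against 6.81% of all genes tested. None was called higher, against 18.2% of all genes. On the TMM scale 6 members, Bhmt, Ahcy, Cbs, Pemt, Sardh and Mthfd1, lay below every normal liver in all UTOpiA livers, against 26.1% of all genes tested, and in TPM 5 did, as Bhmt overlapped. The members not called had log2 fold changes from -0.72 (Bhmt, SE 0.37, adjusted p = 0.154) to 0.23 (Mat1a, SE 0.39, adjusted p = 0.664). Cth was at -0.57 (SE 0.50, adjusted p = 0.39), and without UTOpiA replicate 1 it was called lower at -1.44 (adjusted p = 0.014). The median over the members was -0.68, against 0.05 over all genes tested. This comparison shares its normal livers with the one above.

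The direct comparison asks whether UTOpiA and empty livers differed. Bhmt was 3.27-fold and Cth 4.47-fold higher in UTOpiA livers, with no overlap between the groups, but neither was called by edgeR: the log2 fold changes were 1.71 (SE 0.38, adjusted p = 0.264) and 2.16 (SE 0.52, adjusted p = 0.283). Without UTOpiA replicate 1, the liver with the highest Cth level, the value for Cth was 1.29. edgeR called 0 members higher (0% of all genes tested) and 0 lower (0% of all genes). At an unadjusted p under 0.05, Bhmt, Cth, Cbs and Gnmt were higher and Mat2a was lower, as were 1456 of all genes in either direction, and the smallest adjusted p of any gene was 0.17. The 2 members that lay above every empty liver compare with 6.15% of all genes tested.

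DESeq2, run on the same counts as an alternative, called Bhmt (log2 1.69, SE 0.35, adjusted p = 0.000721) and Cth (log2 2.14, SE 0.48, adjusted p = 0.0029) higher in UTOpiA livers, among 51 genes called higher and 74 lower. Over 23 alternatives the adjusted p ranged from 1.26e-06 to 0.762 for Bhmt and from 4.71e-05 to 0.697 for Cth. The DESeq2 count depended on single livers. It was 5 without empty replicate 2 (Bhmt, Cth, Mat1a, Gnmt and Cbs), when 348 of all genes were called higher and 141 lower. It was 4 without UTOpiA replicate 2 (Bhmt, Cth, Gnmt and Cbs), with 228 and 342 of all genes, and 1 without UTOpiA replicate 1 (Bhmt), with 24 and 26 of all genes. Under edgeR it was 0 with any library left out, although other genes were then called: 26 higher and 22 lower without empty replicate 2, 32 and 17 without UTOpiA replicate 2, and 1 lower without empty replicate 3.

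The other members overlapped between the ACLF groups, and edgeR called none of them. The log2 fold change of UTOpiA against empty livers was 1.79 for Gnmt (SE 0.73, adjusted p = 0.455), which became 2.601 without empty replicate 2. For Cbs it was 1.21 (SE 0.40, adjusted p = 0.395). Mat1a stood at 0.69 (SE 0.39, adjusted p = 0.577), Mthfd1 at 0.61 (SE 0.35, adjusted p = 0.58) and Mat2a at -0.39 (SE 0.17, adjusted p = 0.481). Sardh, Pemt and Ahcy were at 0.42, 0.37 and 0.05. The 5 members called lower in empty but not in UTOpiA livers, Gnmt, Bhmt, Cbs, Cth and Sardh, are thus not shown to differ between these groups by edgeR.

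**Figure D3:**
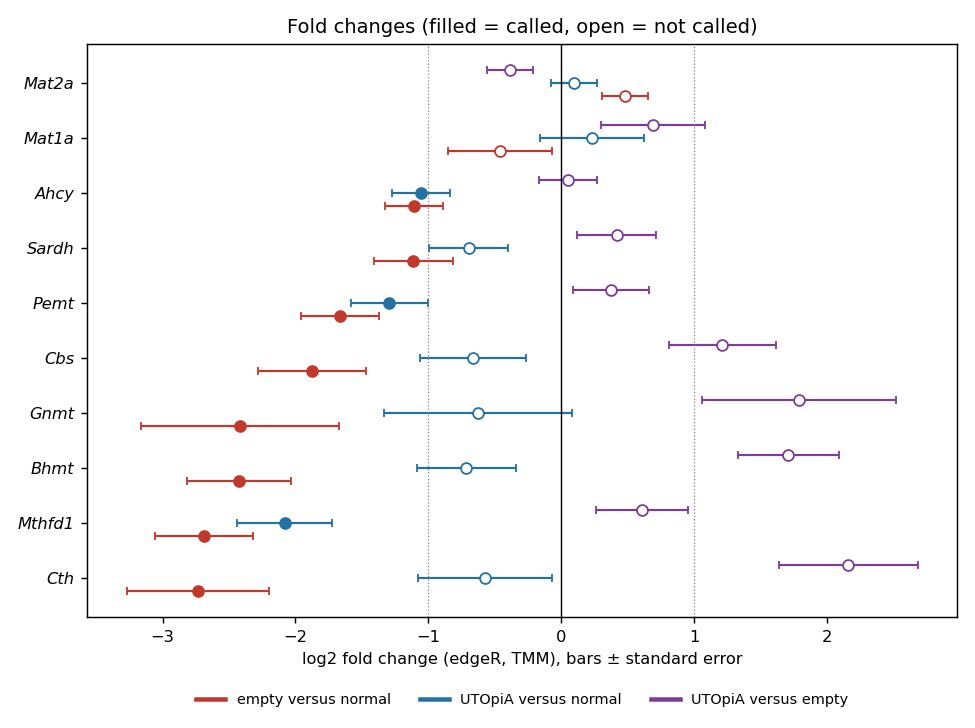
Log2 fold change of each enzyme gene in the 3 comparisons, with bars of 1 standard error (edgeR on TMM-scaled counts, 9 livers). Filled points were called, open points were not, and dotted lines mark a 2-fold change. In empty against normal livers 8 genes are called lower, in UTOpiA against normal livers Mthfd1, Pemt and Ahcy, and in UTOpiA against empty livers none.

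Single livers carried much of the spread. UTOpiA liver 2 had the lowest TMM-scaled level of its group in 8 of the 10 members, and empty liver 2 the highest of its group in 9. The median difference of the members from the normal mean, in log2, was -0.45, -1.43 and -0.47 in UTOpiA livers 1 to 3 and -2.08, -1.29 and -2.19 in empty livers 1 to 3. UTOpiA liver 2 thus stood nearer to empty liver 2 than to the other UTOpiA livers. The summed hepatocyte markers showed a like order, with 82145, 53555 and 74597 TPM in the UTOpiA livers and 47573, 84001 and 46294 TPM in the empty livers, and their part in the members' levels was not tested.

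**Figure D4:**
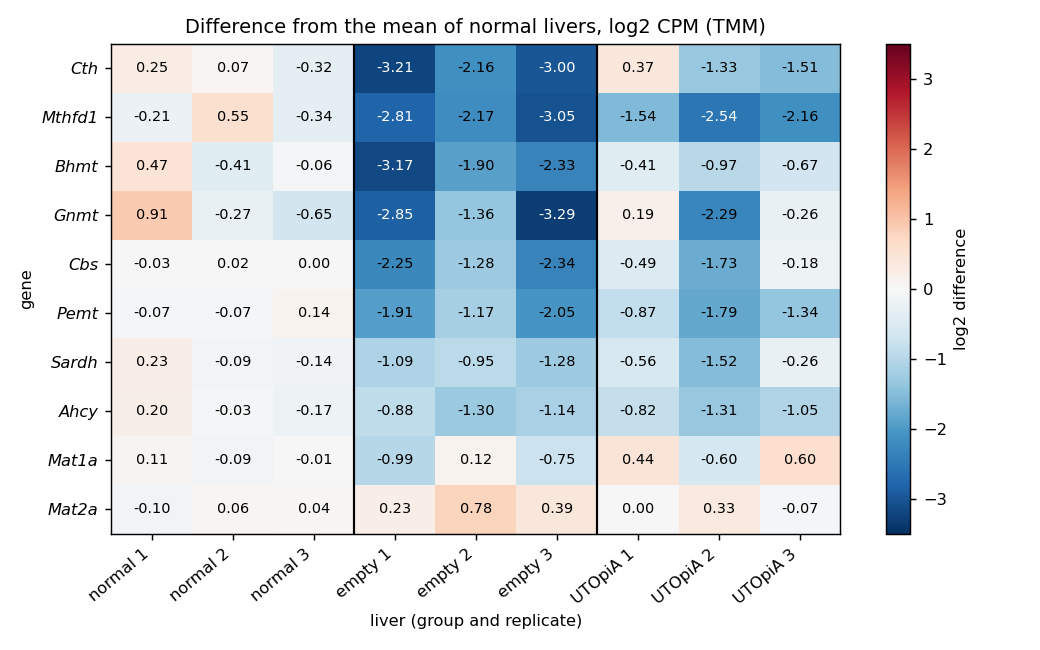
Difference of each liver from the mean of the normal livers, in log2 CPM after TMM scaling, for the 10 genes (rows) in 9 livers (columns). Blue cells are lower and red cells higher than normal. Most cells of empty livers 1 and 3 are below -1, and UTOpiA liver 2 is lower than UTOpiA livers 1 and 3 in most rows.

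The order of the members by mean TPM differed between the groups. In normal livers it ran Bhmt, Mat1a, Pemt, Ahcy, Cth, Cbs, Mthfd1, Gnmt, Sardh and Mat2a, where Pemt and Ahcy overlapped, as did each neighbouring pair from Cbs to Sardh. In empty livers Mat1a came first at 1173 ± 496 TPM, overlapping Bhmt at 739 ± 309.6 TPM (SD, n = 3), and the genes from Sardh to Mat2a each overlapped their neighbours. In UTOpiA livers Bhmt (2080.3 ± 437 TPM) again came before Mat1a (1589 ± 432 TPM), with overlap. Mat2a was last in all 3 groups.

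Of 74 further genes around the cycle, in 8 lists by role, 72 were tested. In empty against normal livers 25 were called lower, 6 higher and 41 not called, and the median log2 fold change was -0.72. In UTOpiA against normal livers 18 were called lower and 4 higher, with a median of -0.57. In UTOpiA against empty livers edgeR called none, with 7 genes at an unadjusted p under 0.05, and DESeq2 called 1 lower, Sat1 (log2 -1.43, adjusted p = 0.0313). Over all genes tested, 11.1% were called lower and 20.7% higher in empty livers, and 6.81% and 18.2% in UTOpiA livers. For UTOpiA against empty livers edgeR called 0% of all genes. These shares also apply to the role and marker lists below.

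Cysteine, glutathione and taurine genes had 6 of 11 called lower and none higher in empty livers. Gclc, the catalytic subunit of the rate-limiting enzyme of glutathione synthesis, was at -2.65 in empty and -2.83 in UTOpiA livers (log2 fold change against normal, adjusted p = 0.000319 and 0.000365). Suox, sulfite oxidase, was at -2.42 and -1.72, and Ethe1, a persulfide dioxygenase, at -2.40 and -2.27, all called. Tst and Mpst, sulfurtransferases, and Csad, of taurine synthesis, were the others called in empty livers. The list of glycine and serine genes had 7 of 11 called lower in empty livers and 5 in UTOpiA livers. Its named genes were Shmt2, the mitochondrial serine hydroxymethyltransferase, at -2.15 and -1.70, Amt at -1.55 and -1.03, and Gcsh at -1.48 and -0.56. Amt and Gcsh encode parts of the glycine cleavage system, and only the last of these 6 values was not called.

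Other SAM-dependent methyltransferases had 3 of 6 tested genes called lower and 1 higher in empty livers, the latter being Nnmt, the nicotinamide methyltransferase (log2 1.27, adjusted p = 0.00371). Inmt, an indolethylamine methyltransferase, was at -4.12 in empty and -4.76 in UTOpiA livers, both called. Gamt, which makes creatine, was called lower in empty livers at -1.61 (adjusted p = 0.0171), with -0.81 (adjusted p = 0.179) in UTOpiA livers. Of the direct neighbours in the methionine cycle, 1 of 6 was called lower in empty livers. This was Bhmt2, a paralog of Bhmt, at -2.21 (adjusted p = 0.00586), with -1.18 (adjusted p = 0.0803) in UTOpiA livers. Methionine synthase Mtr and its reductase Mtrr, the folate-dependent route back to methionine, were at -0.90 and -0.71 in empty livers with adjusted p of 0.0067 and 0.00292, under the 2-fold limit.

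Folate genes were called in both directions, with 4 of 18 tested called lower and 3 higher in empty livers, and 3 and 3 in UTOpiA livers. The shares over all genes tested were 11.1% lower and 20.7% higher in empty livers, and 6.81% and 18.2% in UTOpiA livers. Aldh1l1, the cytosolic formyltetrahydrofolate dehydrogenase, was at -3.05 in empty and -2.94 in UTOpiA livers. Folr2, a folate receptor of macrophages, was at 2.68 and 2.43, and Mthfd2l, a mitochondrial paralog in the family of Mthfd1, at 2.55 and 1.48. Further called genes in empty livers included Aldh1l2 and Ftcd, lower, and Mthfd1l, higher (log2 2.19). Macrophage markers were higher as well, 5 of 5 called in empty livers, with a summed level of 79.5 to 109.6 TPM in normal and 278 to 620.1 TPM in empty livers, and their part in Folr2 was not tested.

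Choline and betaine genes had 3 of 7 called lower and 1 higher in empty livers. Dmgdh, which demethylates the dimethylglycine formed by Bhmt, was at -2.06 in empty and -0.99 in UTOpiA livers (adjusted p = 0.0078 and 0.128). Aldh7a1, which can oxidise betaine aldehyde, was at -1.81 and -1.11, and the choline transporter gene Slc44a1 at 1.25 and 1.13, all called. Chdh, which oxidises choline on the way to betaine, was at -1.23 and -1.57, both called. In the list of methionine salvage and polyamine genes, 1 of 10 was called higher and 1 lower in empty livers. These were Sat1, which acetylates spermidine and spermine, at 2.44 (adjusted p = 0.00137) and Adi1, of the salvage pathway, at -1.63 (adjusted p = 0.00377). Amd1, the SAM decarboxylase, was at -0.98 and not called.

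Of 3 genes for proteins that act on Mat2a or Mat1a mRNA, none was called in any comparison. Hnrnpd was at 0.46 in empty livers (adjusted p = 0.033, under the 2-fold limit), Mettl16, the methyltransferase that acts on Mat2a mRNA, at -0.14 (adjusted p = 0.472) and Elavl1 at -0.09 (adjusted p = 0.693).

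**Figure D5:**
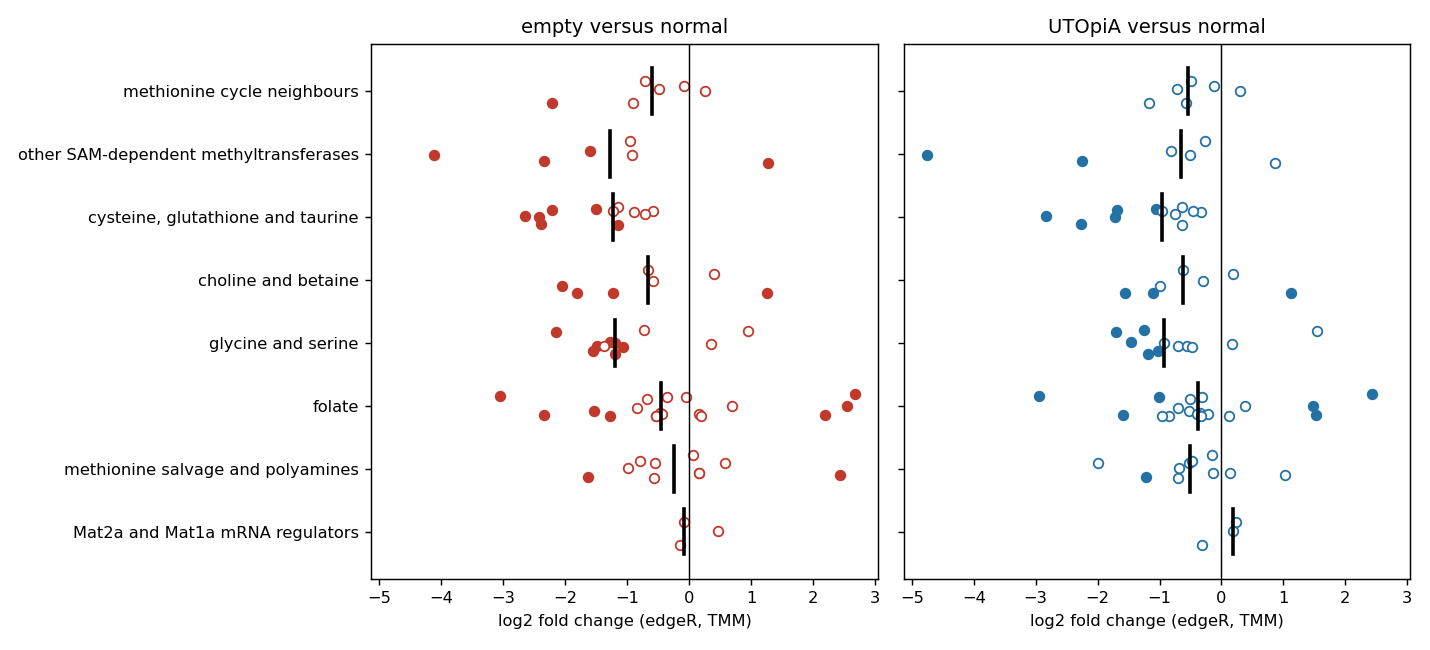
Log2 fold change against normal livers of the 72 tested genes around the cycle, in 8 role lists, for empty (left) and UTOpiA livers (right). Each point is a gene, filled where called, and black bars are list medians. The list medians lie below 0 except for the mRNA regulators in UTOpiA livers, and the lists for folate, choline, polyamines and other methyltransferases hold called genes on the right side as well in empty livers.

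Markers of cell types differed with the groups. In empty against normal livers, hepatocyte markers had 6 of 10 called lower and 1, the gluconeogenic gene Pck1, higher (log2 3.10, adjusted p = 0.00181), with a median of -1.13. Cholangiocyte markers had 6 of 6 called higher and summed to 14.5 to 24.8 TPM in normal, 304 to 610 TPM in empty and 128 to 389 TPM in UTOpiA livers. Neutrophil markers, of which 3 of 5 could be tested and all 3 were called higher, summed to 2.15 to 5.24 TPM, 176 to 1079.9 TPM and 171 to 497 TPM. Stellate cell and fibroblast markers had 5 of 6 called higher in both ACLF groups. No marker was at 0 in all 9 libraries, no list had a called gene in UTOpiA against empty livers by edgeR, and their part in the members' differences was not tested.

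Among 12996 genes with a mean of at least 1 CPM, those whose log2 CPM followed each SAM synthetase gene most closely over the 9 livers were ranked by Pearson's r, as a description over livers of 3 groups. For Mat1a they were Mab21l3 (0.953), Smim24 (0.951), Nr2f6 (0.950), Prelid2 (0.947) and Scaf1 (0.947). For Mat2a they were Cd83 (0.974), Tbc1d4 (0.964), Pip5k1a (0.960), Fam110c (0.955) and Itpkc (0.952). Cd83, a marker of activated dendritic and B cells, had a log2 fold change of 2.81 in empty and 0.85 in UTOpiA livers against normal livers.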

How the data were processed

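Liver RNA of 9 rats was sequenced, and the labels gave each library its group and replicate. The authors deposited raw gene counts, whole numbers for 32883 rat Ensembl genes, and TPM computed from them. Per the labels, reads were trimmed with Trimmomatic, aligned to rn6 with HISAT2 and counted with featureCounts. The methods of the study name another trimmer, library kit and the mouse build GRCm38. The strand setting was not given in the sources used here. Between 14241172 and 17321677 reads were counted per library.

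Counts were fitted with edgeR 4.0.16 in R 4.3.3: filterByExpr (14089 genes kept), TMM, one fit of all 9 libraries, and the robust quasi-likelihood test, two-sided. The standard error is the log2 fold change divided by the root of F. The study's own test was DESeq2, here run as an alternative (1.42.0), beside limma 3.58.1 on log2(TPM + 1) and log2(TPM + 0.1) for genes with a mean TPM of at least 1. Other alternatives were median-of-ratios scaling, no filter, a minimum of 10 counts per library, calls without a fold threshold, the 6 libraries compared, the replicate number as a block and each library left out. Leaving out each ACLF library under DESeq2 was chosen after seeing the data. The Mat2a to Mat1a ratio was compared by an exact permutation test (scipy 1.17.1). The scripts were tested on simulated counts.

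The members and all gene lists were chosen with earlier results of these data known. All members are named, and from each role list up to 3 genes with the largest change between empty and normal livers; Nnmt, Tst, Mpst, Csad, Chdh, Aldh1l2, Ftcd and Mthfd1l were named after their values were seen. Some genes that enter the counts are not reported here by name. Col1a2 and Cth were matched by Entrez gene number, and Pecam1 was not matched. The labels call the samples biological replicates, and 9 same-group pairs all differed by more than sampling noise (smallest chi-square per degree of freedom 17.6). Replicate numbers did not pair the samples.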

Additional observations from a re-analysis of the deposited data

How the results depend on the processing

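Across the alternatives, 645 of the members' log2 fold changes kept their direction and their side of the threshold, 20 gained a call, 17 lost one and 8 changed sign. The sign changes concern small differences. Ahcy in UTOpiA against empty livers was -0.16 with limma on log2(TPM + 1) and -0.16 on log2(TPM + 0.1), and ranged from -0.105 to 0.17 with single libraries left out (-0.041 and -0.070 without empty replicate 2, -0.096 and -0.105 without UTOpiA replicate 1, edgeR and DESeq2). Mat2a in UTOpiA against normal livers ranged from -0.054 to 0.18 with single libraries left out (-0.039 and -0.054 without UTOpiA replicate 2, edgeR and DESeq2). The log2 difference of the Mat2a to Mat1a ratio between UTOpiA and normal livers ranged from -0.56 to 0.25 with single libraries left out. Members called higher in empty against normal livers numbered 1 without a fold threshold. In UTOpiA against empty livers 2 were called higher with DESeq2, which became 5 without empty replicate 2, 4 without UTOpiA replicate 2, 1 without UTOpiA replicate 1 and 2 without each of the other ACLF libraries. The genes called higher over the whole table moved with it, from 51 to 348, 228 and 24 in that order, and to between 26 and 74 for the others. With edgeR it was 0 whichever library was left out. The count of members called lower in empty livers was 6 with limma on either TPM scale. Of all genes, 690 were called lower there on log2(TPM + 1) and 748 on log2(TPM + 0.1). The role-list genes called lower numbered 39 without a fold threshold in empty livers, 28 in UTOpiA livers, and 11 with limma in UTOpiA livers. With limma, 483 of all genes were called lower in UTOpiA livers on log2(TPM + 1) and 524 on log2(TPM + 0.1). Shares of all genes without a fold threshold are not given here, so the counts without it cannot be set against them. The cause of the differences between these settings was not tested. With the replicate number as a block, 7 members were called lower in empty livers (Gnmt was lost, adjusted p = 0.0555) and 3 in UTOpiA livers. Of all genes, 1532 and 897 were called lower in that fit. Samples with the same number did not deviate together over 9 pairs (r from -0.183 to 0.064), so the replicate block shows no pairing. With 3 livers a group and a spread led by single livers, differences between the ACLF groups are the least certain here, while every member had at least 212 counts in each library. DESeq2 was not run without single normal livers.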
